A study of Mus musculus with 6 samples.

Results

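The interferon pathway was examined here as 76 genes of the 35186 symbols counted, in memory B cells of the mouse spleen. They were picked by symbol, with earlier results of these data known. They are the interferon receptor genes (Ifnar and Ifngr), the Janus kinase genes Jak1 to Jak3 and Tyk2, the Stat and Irf genes, the genes of nucleic acid sensing Ddx58, Ifih1, Mavs, Tmem173, Mb21d1 and Zbp1, and the response genes named Ifit, Ifitm, Ifi2, Ifi4, Oas, Gbp, Mx and Isg. Usp18 was left out. The cells were sorted for binding the hapten antigen NP from C57BL/6J mice, about 1000 cells per library. There were 3 libraries from wild-type mice (WT) and 3 from mice with the genotype Nix-/-Bnip3-/- (DKO). Nix is another name for Bnip3l, and it and Bnip3 encode receptors on the outer mitochondrial membrane that hand mitochondria to autophagy. Counts below are listed for libraries 1, 2 and 3 of WT and then, after "against", of DKO. The labels do not say in which cells or when the genes were deleted, or whether replicates came from different mice. The p-values therefore rest on the spread among these 6 samples, part or all of which may be technical.

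Interferons signal through paired receptor chains whose bound Janus kinases phosphorylate STAT proteins. The type I receptor acts mainly through a complex of STAT proteins with IRF9, which binds interferon-stimulated response elements, and the interferon gamma receptor through STAT pairs, which bind gamma-activated sites. Cells also sense nucleic acids in the cytosol, RNA through RIG-I (Ddx58) and MDA5 (Ifih1) with the adaptor MAVS on the mitochondrial surface, and DNA through cGAS (Mb21d1) with the adaptor STING (Tmem173). DNA and RNA that leave damaged mitochondria are known ligands of these routes, which is the question the comparison of WT with DKO puts to these genes.

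Libraries were shallow, with 312908 to 500527 counts in WT and 444461 to 517057 in DKO, and the table listed 17831 to 18486 genes with a count in WT libraries against 23580 to 24787 in DKO libraries. Across genes, Spearman correlations were 0.483 to 0.491 between WT libraries and 0.707 to 0.723 between DKO libraries. The targeted genes did not settle the genotypes: Bnip3l had 1, 8 and 0 counts against 10, 16 and 41, more in the libraries labelled DKO, and Bnip3 had 25, 62 and 6 against 2, 24 and 11. A count per gene does not show which exons the reads came from. Each direction below is therefore between libraries as labelled. B cell genes were counted unevenly. Ms4a1, encoding CD20, had 28, 0 and 8 counts against 42, 70 and 65, and Ebf1, a B lineage factor, 25, 16 and 8 against 17, 29 and 26. Cd79a, a chain of the B cell receptor, had 3, 0 and 0 counts against 0, 2 and 4, and Cd74, the invariant chain, had 2, 11 and 0 against 3, 5 and 4. The summed level of the 11 B cell markers counted, of 12 listed, was 247 to 460 normalized CPM in WT and 318 to 378 in DKO libraries, where normalized CPM is the count scaled to a common effective library size. Summed markers of monocytes and macrophages (11 counted of 12, none at 0 in all libraries) were 88.8 to 328 in WT and 495 to 827 in DKO libraries, and those of stromal and endothelial cells (7 of 7, none at 0 throughout) 514 to 1097 and 346 to 484. Within that list Col1a1 was at 559 normalized CPM in WT library 1, while Pecam1 was higher in each DKO library (101 to 163) than in any WT library (15.8 to 67.9). Those of erythroid cells (6 of 6, with Hbb-bs and Hba-a2 at 0 throughout) were 58.0 to 120.1 and 14.7 to 22.6. The sums of these 3 lists did not overlap between groups, and their part in the results below was not tested. Those of plasmacytoid dendritic cells, which make much type I interferon (7 of 7, none at 0 throughout), were 475 to 2694 and 309 to 434, but overlapped at 292 to 2621 and 243 to 366 once Irf8, one of the 76 genes, was left out. Ccr9 in WT library 2 and Tcf4 in WT library 3 led that list, and Bst2 had 0 counts throughout WT against 3, 2 and 89. Of the monocyte and macrophage markers, only Lyz2 and Itgam had groups that did not overlap. Lyz2 was at 0 to 52.5 normalized CPM in WT and 79.2 to 399 in DKO libraries. Itgam was at 5.22 to 110 and 183 to 333. Csf1r, Spic, Vcam1, C1qa and Cd14 were highest in a WT library. In such pooled cells, fewer cells of a type and less RNA per cell cannot be told apart.

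Interferon pathway genes lay on both sides, and none passed the test. Of the 76 genes, 43 had enough counts to be tested, and 0 of them passed edgeR's quasi-likelihood test at a Benjamini-Hochberg adjusted p of 0.05, as did 0 of all 8895 genes tested (0%). Log2 fold changes, DKO against WT, were above 0 for 21 and below 0 for 22. The share above 0 was 48.8%, against 45.5% of all genes tested, and the median was -0.31 against -0.17. By unadjusted p alone, 3 genes lay under 0.05 on the higher side, Oas1c and Gbp9 among them, against 5.49% of all genes, and 2 on the lower side (Tmem173 and Zbp1), against 6.59%. Both sides together held 12.1% of all genes. All values of 9 genes were higher in the libraries labelled DKO than in any WT library, and 0 genes had all values lower. These 9 are 20.9% of the 43, while 19.2% of all genes tested were apart in either direction, 12.8% higher and 6.39% lower. With DESeq2, Oas1c was called higher (adjusted p = 0.0166; 2.45% of all genes were called higher) and Tmem173 and Mx1 lower (adjusted p = 0.00508 and 0.0442; 4.31%), and 6.76% of all genes were called in either direction. DESeq2 gave no adjusted p for Zbp1 and Oasl2, so these were not judged by it. With limma-voom 0 genes were called, and the adjusted p of the 43 genes in edgeR ran from 0.39 to 0.92.

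**Figure D1:**
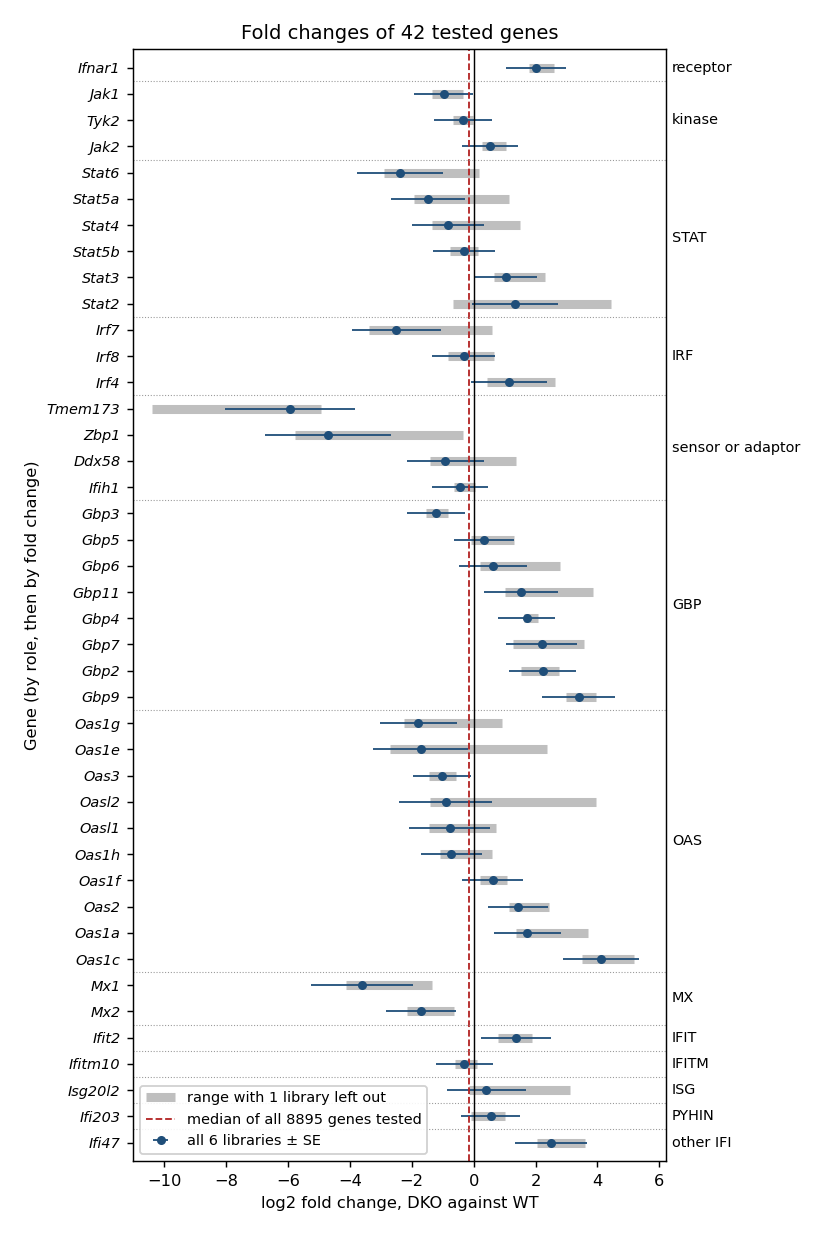
Log2 fold change of 42 of the 43 tested genes, DKO against WT (x axis), by role, with the standard error from edgeR as thin bars and, as thick grey bars, the range when 1 of the 6 libraries is left out. The dashed line is the median of all 8895 genes tested, -0.17. Grey bars cross 0 for 18 genes, and Tmem173 lies farthest from 0 at -5.93.

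Which WT library a gene was counted in varied from gene to gene. In WT library 1, Zbp1 had 672 counts, Mx1 495 and Isg15 375, and these 3 genes held 64.7% of the 2382 counts of the 76 genes there. In WT library 2 the leading genes were Oasl2 with 231 counts, Irf7 with 170 and Mx2 with 146, or 34.0% of 1611 counts. In WT library 3 the gene with most counts was Mx1, with 76 of 595, and its 3 leading genes held 35.0%. In the libraries labelled DKO the 3 leading genes held only 14.2% to 18.2%. The 76 genes together took 0.761%, 0.322% and 0.186% of the counts in WT against 0.335%, 0.324% and 0.306% in DKO, so WT libraries 1 and 3 bracket the others.

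**Figure D2:**
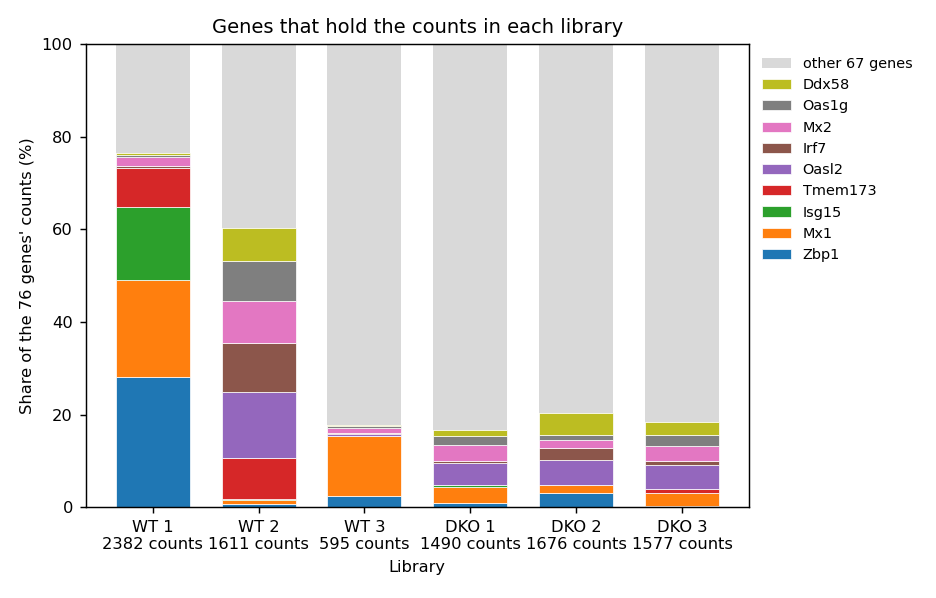
Share of the counts of the 76 genes (y axis, percent) that 9 genes with many counts took in each library (x axis, with the total count of the 76 genes). Zbp1, Mx1 and Isg15 fill 64.7% of WT library 1. The grey part, the other 67 genes, is smaller in WT libraries 1 and 2 than in WT library 3 and the 3 DKO libraries. Its size depends on which 9 genes were named, so this order is not a result by itself.

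The spread followed the same division. Over the 43 tested genes the median coefficient of variation was 1.00 among WT libraries and 0.396 among DKO libraries, and it was larger in WT for 36 of 43 genes (83.7%). Over the 8868 tested genes with counts in both groups it was larger in WT for 79.3%, so this is also how most other genes were spread. Of the 43 genes, 15 (34.9%) had over 50% of their summed normalized CPM in 1 library, against 29.7% of all genes tested. That library was of WT for 12 of the 15, and for 2101 of the 2639 such genes among all tested. For 30 of the 43 genes the fold change moved by over 1.5-fold when 1 library was left out, and for 18 the sign turned.

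**Figure D3:**
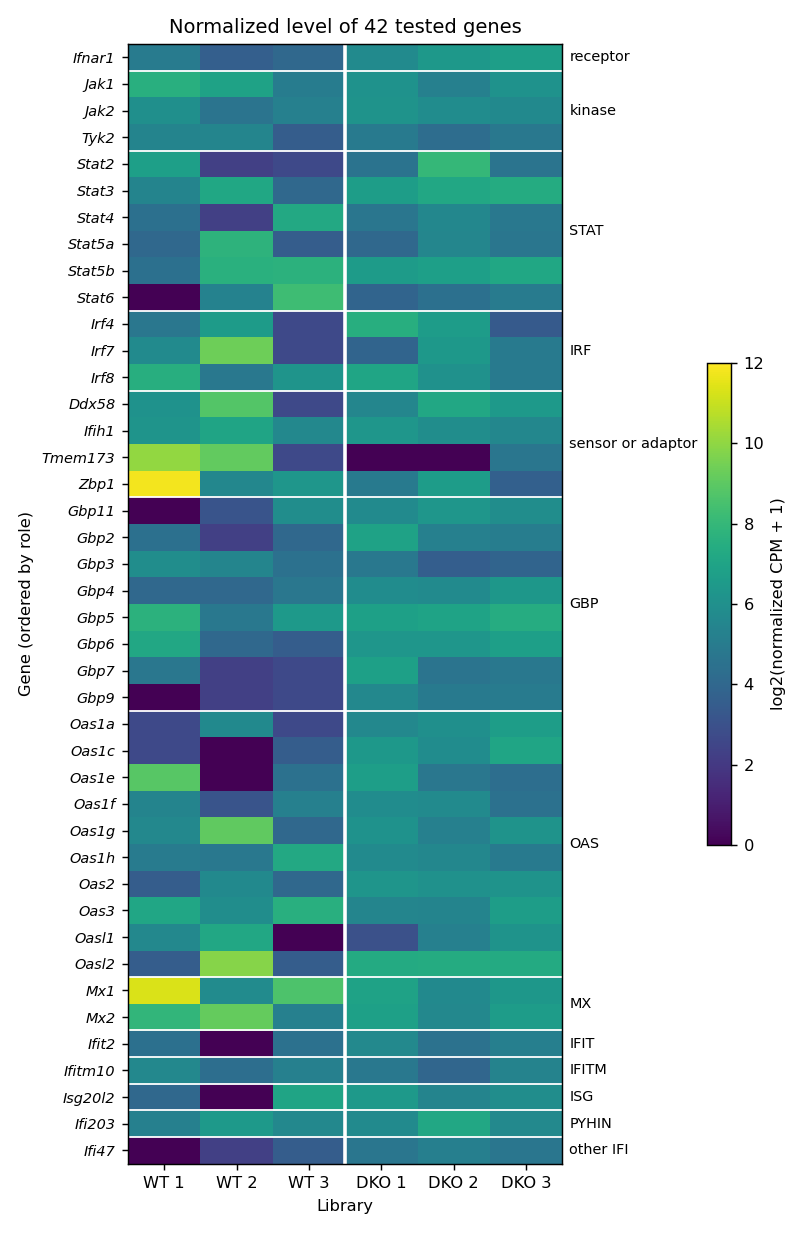
Level of 42 of the 43 tested genes in each library as log2(normalized CPM + 1), in colour, with genes (y axis) ordered by role and libraries on the x axis. The brightest cells are Zbp1 and Mx1 in WT library 1, and the DKO columns resemble each other more than the WT columns do (median coefficient of variation 0.396 against 1.00).

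The 4 receptor genes each had more counts in total in the libraries labelled DKO. Those libraries also had a count for more genes of any kind, 23580 to 24787 against 17831 to 18486 in WT. Ifnar1 (chromosome 16, 91485238 to 91507441, mm10), a chain of the type I interferon receptor, had 6, 3 and 3 counts against 23, 45 and 54, or 19.6 ± 10.4 against 79.8 ± 26.4 normalized CPM (SD, n = 3). The groups did not overlap, as for 12.8% of all genes tested with DKO higher. The Ifnar1 difference was 2.02 on the log2 scale (SE 0.96, edgeR adjusted p = 0.419), and lay between 1.79 and 2.60 with any 1 library left out, so it was among the steadier values. The partner chain Ifnar2 was counted 1, 0 and 0 times against 29, 6 and 13 times. For the interferon gamma receptor, Ifngr1, the ligand-binding chain, had 5, 7 and 3 counts against 18, 7 and 59, and Ifngr2, the signalling chain, had 1, 1 and 0 against 5, 11 and 3. The Ifngr1 groups overlapped, with 27.0 normalized CPM in WT library 2 and 12.9 in DKO library 2. Ifnar2, Ifngr1 and Ifngr2 did not reach the filter's level in enough libraries to be tested. The 4 genes together were at 67.9, 42.5 and 31.5 normalized CPM in WT libraries 1, 2 and 3 and at 169.6, 127.0 and 249.8 in those labelled DKO. Ifnar1, Ifnar2 and Ifngr2 lie within chromosome 16, 91372783 to 91565623.

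Janus kinase genes had overlapping groups throughout. Jak1, which serves both receptors, had 36, 31 and 6 counts against 30, 20 and 35 (log2 fold change -0.97, SE 0.96, edgeR adjusted p = 0.683), or -0.34 without WT library 1. Jak2, the kinase of the signalling chain of the interferon gamma receptor, had 12, 6 and 7 against 31, 30 and 26, which is 40.9 ± 20.1 against 58.6 ± 10.3 normalized CPM (SD, n = 3). Tyk2, which binds the IFNAR1 chain, had 8, 11 and 2 against 13, 10 and 14. Jak3, the kinase of the common gamma chain of interleukin receptors, had only 17 counts in all and was not tested. On the log2 scale the 3 tested kinase genes ran from -0.97 to 0.52, and Tyk2, at -0.35, lay at 0.43 with library totals alone.

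STAT genes were uneven between WT libraries. Stat2, part of the type I complex, had 21, 1 and 1 counts against 10, 136 and 12, so that 60.3% of its summed level was in DKO library 2. The log2 fold change of Stat2 was 1.33 (SE 1.39), or -0.66 without DKO library 2 and 4.43 without WT library 1. Stat3, used by interleukin-6 family and interleukin-10 receptors, had 8, 37 and 3 counts against 45, 79 and 87 (1.04, SE 1.00), with WT library 2 inside the range of the DKO libraries. Without WT library 2 it was 2.30. Stat4, known for interleukin-12 signals, had 4, 1 and 29 against 11, 25 and 14 (-0.83, or 1.499 without WT library 3). Stat6, which acts after interleukin-4, had 0, 10 and 58 against 6, 11 and 16 (-2.38 on the log2 scale, SE 1.39), and 74.6% of it lay in WT library 3, without which it was 0.19. Stat5a had 3, 55 and 2 counts against 7, 24 and 13 (-1.49, or 1.14 without WT library 2), and Stat5b 4, 51 and 40 against 42, 58 and 73. On the log2 scale 2 of the 6 tested STAT genes lay above 0 and 4 below (median -0.58), and Stat4, Stat5a, Stat5b and Stat6 turned sign when 1 library was left out, as Stat2 did.

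IRF genes described here had overlapping groups. Irf7, which amplifies type I interferon production (chromosome 7, 141262706 to 141266481), had 10, 170 and 1 counts against 6, 45 and 15. Of its summed level 78.2% was in WT library 2, and its value of -2.50 (SE 1.44) became 0.59 without that library. Irf4, a regulator of plasma cell differentiation, had 5, 25 and 1 against 81, 53 and 5 (1.15, SE 1.23), or 2.64 without WT library 2 and 0.43 without DKO library 1. Irf8, a factor of B cells, myeloid cells and plasmacytoid dendritic cells, had 35, 7 and 14 against 58, 36 and 15 (-0.32, SE 1.02), or 0.66 without WT library 1. Of the 9 IRF genes, 5 were not tested. Irf3, the factor activated downstream of MAVS and STING, had 1, 6 and 24 counts against 2, 3 and 0, and Irf9, the DNA-binding part of the type I complex, had 3, 17 and 0 against 13, 6 and 7. Irf1, induced early by interferon gamma, had 5, 6 and 1 against 2, 4 and 4, and Irf5 had 0, 0 and 7 against 0, 7 and 0. Irf2, an antagonist of IRF1, was at 0 counts throughout WT and had 6, 8 and 0 in DKO. Its DKO mean was 2.01 times a WT floor of 3 counts for the 3 libraries together. That ratio leaves out the spread between libraries, and DKO library 3 was at 0 like those of WT.

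Sensor and adaptor genes were led by genes with many counts in a WT library. Tmem173, encoding STING, had 202, 142 and 1 counts against 0, 0 and 13. This is 536 ± 525 against 8.39 ± 14.5 normalized CPM (SD, n = 3). WT library 3 lay within the range of the DKO libraries, so the groups overlapped. On the log2 scale Tmem173 was at -5.93 (SE 2.10, edgeR adjusted p = 0.390), from -10.40 without DKO library 3 to -4.92 without WT library 1. Without DKO library 3 its DKO counts were all 0, so the size of -10.40 is not a measured difference. Zbp1, a sensor of Z-form nucleic acids that can start necroptosis (chromosome 2, 173206612 to 173218923), had 672, 12 and 15 counts against 13, 53 and 6. WT library 1 held 93.0% of its summed level, and without it the log2 fold change went from -4.70 (SE 2.03) to -0.36. Ddx58 had 13, 115 and 1 counts against 20, 79 and 44 (-0.91, SE 1.25), or 1.37 without WT library 2. Ifih1 was the most even gene of this group, with 14, 33 and 9 counts against 35, 31 and 24, or 82.6 ± 41.0 against 60.9 ± 16.7 normalized CPM (SD, n = 3). Mavs had 6, 14 and 1 counts against 47, 2 and 4, and Mb21d1, encoding cGAS, had 0, 4 and 0 against 13, 4 and 13, and neither was tested. All 4 tested genes of this group lay below 0 with TMM scaling, but Ifih1 was at 0.36 with library totals alone, and Ddx58 and Ifih1 turned sign when WT library 2 was left out.

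Promoters were searched for the core of the interferon-stimulated response element, written as GAAA, any 2 bases and GAAA again, which reads TTTC, 2 bases and TTTC on the other strand. Both strands of the RefSeq promoters were read (GRCm38.p6, 250 bases before to 50 after a start). Promoters were found for 56 of the 76 genes, 69 in all, since some genes have several starts. The core was in 20 of the 69 (29.0%) and in 3.44% of all 32851 promoters. The gamma-activated site TTCNNNGAA was in 13 of the 69 (18.8%) and in 8.30% of all promoters. These counts describe the sequences and say nothing of binding in these cells. Stretches with the core are shown for a selection of the genes that carry it, with every base of a match in capitals and the gene's own strand read 5′ to 3′. Others with the core, such as Ddx58, Ifit3, Stat2 and Stat4, are not shown.
Isg15 (chr4:156200860-156200911, minus strand): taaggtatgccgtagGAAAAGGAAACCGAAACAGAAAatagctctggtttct
Ifit1 (chr19:34640770-34640828, plus strand): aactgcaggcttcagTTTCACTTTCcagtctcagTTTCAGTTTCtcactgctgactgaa
Gbp2 (chr3:142620589-142620628, plus strand): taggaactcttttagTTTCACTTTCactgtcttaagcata
Gbp3 (chr3:142559984-142560029, plus strand): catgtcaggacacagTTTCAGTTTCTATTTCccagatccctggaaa
Gbp7 (chr3:142530268-142530307, plus strand): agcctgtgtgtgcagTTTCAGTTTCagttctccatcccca
Oas1c (chr5:120812598-120812643, minus strand): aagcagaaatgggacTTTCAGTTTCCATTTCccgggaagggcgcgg
Oas1a (chr5:120907515-120907560, minus strand): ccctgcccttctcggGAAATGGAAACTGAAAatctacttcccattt
Oas1g (chr5:120887601-120887646, minus strand): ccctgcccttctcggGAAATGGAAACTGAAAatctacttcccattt

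Isg15 and Ifit1 both carry the core within 104 bases before the start, yet their counts lay in opposite libraries. Isg15, a ubiquitin-like modifier (chromosome 4, 156199424 to 156200818), had 375, 2 and 0 counts against 5, 1 and 1, so that WT library 1 held 98.8% of its summed level. Ifit1, which binds foreign RNA lacking cap methylation (chromosome 19, 34640871 to 34650009), had 0, 1 and 0 against 8, 11 and 9. Neither had enough counts in enough libraries to be tested. The stretches printed for Oas1a and Oas1g are the same in every base, and their counts differed most in WT library 2, as given below.

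Guanylate-binding protein genes, whose GTPases attack the membranes of intracellular pathogens and respond strongly to interferon gamma, lay mostly above 0. Of the 8 tested, 7 had log2 fold changes above 0 (median 1.62, beside -0.17 for all genes), also with every other scaling tried, and 6 of 8 without WT library 2, when Gbp5 was at -0.09. Gbp9 had 0, 1 and 1 counts against 21, 16 and 16 (3.04 ± 2.72 against 36.0 ± 10.01 normalized CPM, SD, n = 3), with a log2 fold change of 3.40 (SE 1.17, edgeR adjusted p = 0.390). Gbp2 had 4, 1 and 3 against 53, 20 and 17 (2.23, SE 1.07), and Gbp4 had 3, 4 and 5 against 25, 29 and 41 (1.71, SE 0.92). For Gbp2, Gbp4 and Gbp9 the groups did not overlap. Without DKO library 1 Gbp2 was at 1.53. Gbp7 had 5, 1 and 1 against 49, 13 and 14 (2.20, SE 1.15), and WT library 1 lay just above DKO library 2 once normalized. Without WT library 1 it was at 3.55, and at 1.26 without DKO library 1. Gbp11, which the annotation lists as a polymorphic pseudogene, had 0, 2 and 11 against 23, 42 and 30 (1.52, SE 1.20), or 3.87 without WT library 3. The 2 most abundant genes by count, Gbp5 (40, 7 and 17 against 50, 68 and 88) and Gbp6 (28, 4 and 2 against 34, 43 and 56), were nearer to 0 at 0.33 and 0.63, and both were highest among WT in WT library 1. Without WT library 1 they were at 1.31 and 2.79. Gbp3 lay the other way, with 11, 11 and 4 counts against 12, 6 and 7 (-1.22, SE 0.94), and Gbp8, not tested, had 19, 0 and 3 against 3, 6 and 6. The summed level of the 9 genes was 575, 120 and 247 normalized CPM in WT libraries 1, 2 and 3 and 611, 447 and 533 in those labelled DKO. They lie in 2 clusters, chromosome 3, 142493978 to 142638008, with Gbp2, Gbp3, Gbp5 and Gbp7, and chromosome 5, 105014150 to 105346472, with the others. Macrophages also express these genes, and the summed macrophage markers given above were higher in the same libraries. Of those markers only Lyz2 and Itgam were apart between groups. The part of macrophages was not tested.

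**Figure D4:**
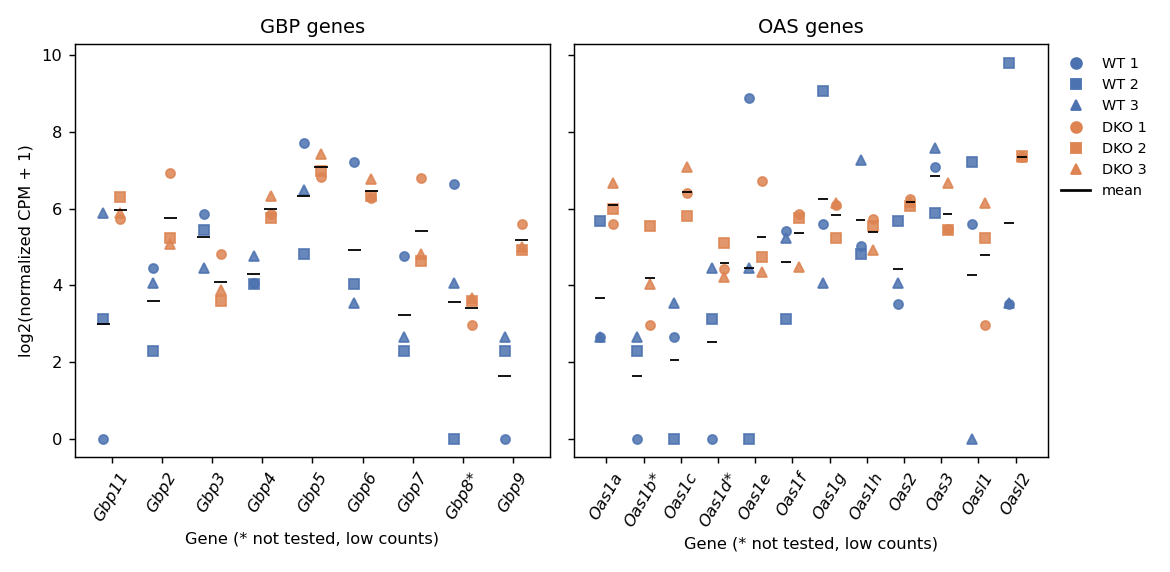
Level of each GBP gene (left) and OAS gene (right) in each library as log2(normalized CPM + 1), with WT in blue, DKO in orange, a symbol for each replicate and a bar at the mean of the 3 values plotted. The DKO points of Gbp2, Gbp4, Gbp9, Oas1c and Oas2 lie above all WT points, and WT library 2 stands high for Oas1g and Oasl2.

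Genes of the oligoadenylate synthetase family, whose active enzymes sense double-stranded RNA and activate RNase L, were divided. Which of the listed genes encode an active enzyme was not tested. Of the 10 tested, 4 lay above 0 and 6 below (median -0.75). Oas1c (chromosome 5, 120800194 to 120812514) had the smallest p of the 43 genes, with 1, 0 and 2 counts against 37, 30 and 69. This is 5.24 ± 5.25 against 90.8 ± 39.7 normalized CPM (SD, n = 3). The groups did not overlap, and the log2 difference was 4.10 (SE 1.22, edgeR adjusted p = 0.390), from 3.52 to 5.16 with any 1 library left out. Oas2 had 2, 13 and 3 against 33, 36 and 37 (1.44, SE 0.97), without overlap, and 2.45 without WT library 2. Oas1a had 1, 13 and 1 counts against 21, 34 and 52 (1.73, SE 1.09, or 3.70 without WT library 2), while Oas1g had 9, 139 and 3 against 30, 20 and 36 (-1.78, SE 1.24, or 0.92 without WT library 2). Oas1a shares 57.6% of its 50-base windows with other genes and Oas1g 45.7%, chiefly with each other, so how their reads were divided is uncertain. Oas1c shares 15.1%, and 227 bases of its exons overlap Gm43069 on the opposite strand, so its reads are uncertain too. Oasl2 had 2, 231 and 2 counts against 72, 89 and 83. Its DKO libraries were at 163, 164 and 161 normalized CPM and WT library 2 at 893, and without that library the log2 fold change went from -0.91 (SE 1.49) to 3.95. Oas1e had 90, 0 and 4 against 46, 14 and 10 (-1.71, or 2.36 without WT library 1), and Oasl1, a repressor of IRF7 translation in mice, had 9, 38 and 0 against 3, 20 and 36 (-0.78, or 0.72 without WT library 2). Oas3 had 26, 15 and 36 against 19, 23 and 52 (-1.03, SE 0.94), Oas1h had 6, 7 and 29 against 23, 25 and 15 (-0.72, or 0.60 without WT library 3), and Oas1f had 8, 2 and 7 against 25, 29 and 11. Oas1b (0, 1 and 1 against 3, 25 and 8) and Oas1d (0, 2 and 4 against 9, 18 and 9) were not tested. The annotation lists Oas1b as a polymorphic pseudogene.

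Mx genes, of a family of dynamin-like GTPases that can block viruses, were highest in WT libraries. Mx1 (chromosome 16, 97447035 to 97462907) had 495, 14 and 76 counts against 53, 28 and 41. WT library 1 was far above all others, while WT library 2 lay near the lower end of the DKO range. The log2 fold change of Mx1 was -3.59 (SE 1.65, edgeR adjusted p = 0.412), or -1.36 without WT library 1. Mx2, which the annotation lists as a polymorphic pseudogene, had 46, 146 and 7 against 50, 26 and 51 (-1.69, SE 1.13), or -0.63 without WT library 2.

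The remaining response genes were sparse. Ifi47, an interferon-gamma-induced GTPase, had 0, 1 and 2 counts against 11, 19 and 13, with no overlap and a log2 fold change of 2.50 (SE 1.16, edgeR adjusted p = 0.413), or 3.61 without WT library 3. Ifit2 had 4, 0 and 4 against 22, 12 and 18 (1.37, SE 1.14). Its groups were apart only narrowly, with 21.0 normalized CPM in WT library 3 and 22.1 in DKO library 2. Ifit3 had 8, 14 and 0 against 4, 3 and 10. Ifitm1, of the family that hinders virus entry (chromosome 7, 140967221 to 140969825), was likewise at 0 counts throughout WT and had 13, 3 and 9 in DKO. Its DKO mean was 3.73 times the same floor, again without the spread between libraries. Ifitm6 had 0, 24 and 4 against 7, 4 and 2, Ifitm7 had 1, 5 and 0 against 9, 7 and 0, and Ifitm10, the 1 tested gene of its family, was at -0.31 (SE 0.92). Ifi44l had 68, 0 and 1 counts against 2, 2 and 0, with 68 of its 73 counts in WT library 1, where Isg15, Mx1 and Zbp1 were also highest. Ifi44 had 1, 8 and 3 against 4, 1 and 14. Of the PYHIN genes, whose proteins bind DNA, Ifi203 had 7, 22 and 9 against 23, 80 and 25 (0.54, SE 0.94, or -0.072 without DKO library 2) and Ifi204 had 1, 2 and 13 against 19, 4 and 6. Isg20l2, an exonuclease of ribosome biogenesis, had 3, 0 and 24 against 38, 23 and 30 (0.41, SE 1.28), or 3.10 without WT library 3. The 9 response genes left had between 3 and 17 counts over all libraries.

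Per kilobase of annotated exon, the order of the mean levels differed between groups. In WT it was led by Isg15 with 867 ± 1493 normalized CPM per kilobase (SD, n = 3), Zbp1 with 343 ± 564 and Mx1 with 268 ± 363. Each of these standard deviations exceeds its mean, so the order among them is not resolved. In the libraries labelled DKO the highest were Oas1c with 37.8 ± 16.5, Oas1a with 37.3 ± 14.5 and Oas1f with 29.6 ± 13.2, which do not differ beyond their spread either.

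Other genes of the pathway, from a list of 124 of which 64 were tested, were also divided. Of the 64, 35 lay above 0 and 29 below (log2 median 0.15), so 54.7% lay above 0 against 45.5% of all genes tested. In edgeR 0 passed the test. By its unadjusted p alone, 2 were higher and 4 lower under 0.05, beside 5.49% and 6.59% of all genes tested. DESeq2 called Cxcl9 higher (adjusted p = 0.0208) and Nfkb1, Irgm2, Supv3l1 and Parp9 lower (0.00643, 0.0274, 0.0410 and 0.0460). Of all genes tested it called 2.45% higher and 4.31% lower. The interferons themselves were barely counted: Ifnb1 had 0 counts in WT libraries and 2 in those labelled DKO, Ifna2 had 1 and 7, Ifna1 0 and 1, and Ifna4 0. Ifng had 3, 28 and 4 counts against 22, 19 and 40 (log2 fold change 0.14). The 5 genes with the smallest p among those above 0 were Cxcl9, a chemokine induced by interferon gamma (2, 2 and 1 counts against 17, 18 and 173; 4.06, SE 1.28), Parp12 (3, 3 and 2 against 23, 31 and 32; 2.15, SE 0.94), the phosphatase gene Ptpn1, Ifnlr1, a chain of the interferon lambda receptor, and Samhd1, a nucleotide hydrolase (4, 19 and 11 against 124, 55 and 94; 1.88, SE 0.97). Cxcl9 was at 2.24 without DKO library 3. Ptpn1 rested on 424 counts in DKO library 1, and its value of 3.39 became -0.12 without that library. Ifnlr1 was at 2.42, or 4.75 without WT library 3. Among those below 0 they were Nfkb1, the p50 subunit of NF-kB (18, 92 and 37 against 12, 15 and 2; -3.44, SE 1.11, or -2.82 without WT library 2), Irgm2, an immunity-related GTPase (12, 284 and 53 against 8, 24 and 40; -3.35, SE 1.35, or -1.82 without WT library 2), Supv3l1, a helicase of mitochondrial RNA decay (3, 358 and 276 against 15, 55 and 41; -3.72, SE 1.67), Parp9 and Dhx58. Supv3l1 was low in WT library 1 and high in WT libraries 2 and 3. Parp9 had 442 of its counts in WT library 2 and went from -3.73 to -0.88 without it. Dhx58, encoding the RNA sensor LGP2, had 30, 23 and 7 counts against 13, 9 and 10 (-2.10, SE 0.97, or -1.46 without WT library 1), with groups that did not overlap.

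Several of these symbols share sequence with other genes. Of the 75 genes matched to the annotation, 20 had over 10% of their 50-base windows in transcripts of another gene, most of all Gbp6 with 70.7%, Oas1a with 57.6% and Ifit3 with 51.2%. Exons of 30 genes overlap those of another gene, for 15 of them on the opposite strand. The sources used here do not say whether strand was used in counting, and without it reads of such pairs cannot be told apart.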

How the data were processed

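Each library held cDNA enriched for polyadenylated RNA, made with a QIAseq FX single-cell kit from roughly 1000 cells taken by flow sorting, per the labels' protocols. The authors deposited raw read counts per gene symbol, 1 column for each of the 6 libraries; 0 columns were unmatched. Tools and builds in the submitters' processing notes are CASAVA, STAR, edgeR, R 3.6.3 and mm10, without roles. Neither the counting tool nor its strand setting is given in the sources used here. The members, gene lists and rules were chosen with earlier results of these data known.

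The test was that of edgeR 4.0.16 in R 4.3.3, with limma-voom 3.58.1 as an alternative: filterByExpr (minimum count 10), TMM scaling, robust quasi-likelihood F test, all 6 libraries, no covariate, Benjamini-Hochberg adjustment over 8895 genes. Standard errors are the log2 fold change over the square root of F. DESeq2 1.42.0 ran on the same genes. It gave no adjusted p for some of them, among them Zbp1, Oasl2, Ptpn1, Traf3, Psmb8 and Lgals9. Its percentages are of all 8895 genes. One count was worth 1.84 to 5.25 normalized CPM. The floors cover counting error alone: no molecular identifiers are named, so reads may repeat a molecule. The steps were tested on simulated data. How many changes they find at the spread of these data (biological coefficient of variation 0.915) is not reported here. Positions, exon lengths and transcripts are from GENCODE M21 (mm10), matched by symbol for 75 genes.

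All members with a signalling role were named, except 2 that are not reported here, as were response genes that were tested or had at least 20 counts, and up to 5 other pathway genes in each direction by smallest p. Alternatives were other scalings, filters, tools and thresholds, the replicate block, and each library left out.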

Additional observations from a re-analysis of the deposited data

How the results depend on the processing

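Libraries were shallow and spread widely within WT, and whether this set the number of calls was not tested. Scaling shifted the whole table: over all genes tested the median was -0.17 (log2) with TMM and 0.62 with library totals alone. The count of genes past the threshold was 0 in each direction except without a filter on low counts (22 higher, 108 lower) and with DESeq2 (218 and 383), where 1 interferon pathway gene was called higher and 2 lower. With 1 library left out these counts stayed at 0. The median of the 43 genes was 0.49 with library totals alone, 0.53 with limma-voom and 0.45 with the replicate block, and -0.076 to 0.59 with 1 library left out. The genes higher in all DKO libraries numbered 15 with library totals alone and 10 to 14 with 1 library left out. Those lower in all numbered 1 to 5 with 1 library left out, since fewer libraries overlap less often. The shares of all genes tested under these settings are not given here, so these counts have no background to be set against.

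The replicate number as a block called 0 genes. Same-numbered libraries had correlations of 0.02, 0.03 and 0.04 in their deviations from the group means. Pairs with different numbers lay between -0.024 and -0.0038, so each library correlated best with its own number. Whether same-numbered libraries share more than a number was not tested, and correlations this weak do not settle it. With the block, values of the opposite sign were 0.12 for Ddx58, 0.085 for Oas1e, 2.12 for Oasl2, 0.16 for Stat4 and 0.11 for Stat5b. Library totals alone gave 0.36 for Ifih1, 0.42 for Ifitm10, 0.40 for Irf8, 0.037 for Oas1h, 0.066 for Oasl1, 0.49 for Stat5b and 0.43 for Tyk2. Limma-voom gave 0.88 for Ddx58, 0.18 for Oas1e, 0.58 for Oasl1, 2.06 for Oasl2 and 0.19 for Stat5b, and no filter gave 0.020 for Ifitm10 and 0.0046 for Stat5b. The cause was not tested.

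With 1 library left out, log2 fold changes that turned sign ran from -1.40 to 1.37 (Ddx58), -0.087 to 1.31 (Gbp5), -0.072 to 1.02 (Ifi203), -0.65 to 0.057 (Ifih1), -0.60 to 0.10 (Ifitm10), -3.39 to 0.59 (Irf7), -0.82 to 0.66 (Irf8), -0.15 to 3.10 (Isg20l2), -2.69 to 2.36 (Oas1e), -2.25 to 0.92 (Oas1g), -1.07 to 0.60 (Oas1h), -1.46 to 0.72 (Oasl1), -1.41 to 3.95 (Oasl2), -0.12 to 5.24 (Ptpn1), -0.66 to 4.43 (Stat2), -1.35 to 1.499 (Stat4), -1.93 to 1.14 (Stat5a), -0.76 to 0.13 (Stat5b) and -2.89 to 0.19 (Stat6).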
